A study of Mus musculus with 4 samples.

Results

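The MHC class II genes described here are *H2-Aa*, *H2-Ab1*, *H2-Eb1*, *Cd74*, *H2-DMa*, *H2-DMb1* and *Ciita*, chosen by name as 7 of the 32285 genes counted in the series. They were followed across the cell types of the mouse fracture callus, the repair tissue that bridges a broken bone, with endothelial and mesenchymal cells included. The samples were 4 single-cell RNA-seq libraries from the right tibia of wild-type male C57BL/6J mice aged 3 months. RA mice had received K/BxN serum by intraperitoneal injection on the day of fracture and again in the following days, a serum transfer that gives an inflammatory arthritis, and control mice had received the vehicle, PBS. Callus was collected 4 or 7 days post fracture (dpf), which gave 1 library each for control 4 dpf, RA 4 dpf, control 7 dpf and RA 7 dpf. Each library was 1 pool of 4 calluses by the series' own description, although the study's methods give a smaller pool. No treatment and day was therefore replicated, the comparisons below set 1 library against 1 library without a test, and each 95% interval (exact Poisson, binomial or conditional) covers counting error only. The cells were freed with collagenase from tissue scraped along the periosteal surface, and cells that such a digest loses are not counted.

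MHC class II molecules display peptides from engulfed material to CD4 T cells. *H2-Aa* and *H2-Ab1* encode the α and β chains of I-A, and *H2-Eb1* encodes the β chain of I-E, which has no α chain partner in the C57BL/6 strain. *Cd74* is the invariant chain that fills the groove of new class II molecules, *H2-DMa* and *H2-DMb1* encode the chaperone that exchanges its remnant for peptide, and *Ciita* is the coactivator that binds no DNA itself but switches the whole set on. Dendritic cells, B cells and some macrophages use this set constantly, and many other cells, endothelium included, can be brought to do so by interferon-γ.

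Of the 34038 deposited barcodes, 25479 passed the filters on depth, gene number and mitochondrial share, and the 4 libraries kept between 4110 and 8223 cells with a median of 16094 to 17632 molecules (UMIs) per cell. Clustering was done without the class II genes and gave 31 clusters, of which 28 fell into 24 classes named by marker genes. The "-like" names therefore stand for marker sets, and 9 class II genes did not take part in drawing the classes. Libraries shared between 10 and 31 cell barcodes pairwise. Doublet calling marked 592 cells (2.32%), with shares between 0.876% and 3.6% of a library, and these were kept and followed separately. Levels are given as CPM, the UMIs of a gene scaled to 1000000 UMIs summed over the cells of a class. Reads came from the 3′ end of transcripts, so a level counts molecules and does not depend on transcript length.

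The promoters are shown because class II genes share a set of short boxes upstream of their start, to which the factors that recruit *Ciita* bind, and because these boxes can be read directly beside the levels that follow. RefSeq windows (GRCm38.p6, 250 bases before to 50 after a start) were found for 4 of the 7 genes, and none for *H2-Ab1*, *Cd74* or *Ciita*. Both strands were searched for TGATTGG, the core of a Y box, for GNAAC, a short piece of an X box, and for TGACGTCA, a cyclic AMP response element. The letters were chosen after the windows had been read. In the lines below, printed 5′ to 3′ on the gene's own strand, capitals mark a GNAAC followed 20 to 30 bases on by TGATTGG and, in *H2-Aa* alone, TGACGTCA between them.

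H2-Aa: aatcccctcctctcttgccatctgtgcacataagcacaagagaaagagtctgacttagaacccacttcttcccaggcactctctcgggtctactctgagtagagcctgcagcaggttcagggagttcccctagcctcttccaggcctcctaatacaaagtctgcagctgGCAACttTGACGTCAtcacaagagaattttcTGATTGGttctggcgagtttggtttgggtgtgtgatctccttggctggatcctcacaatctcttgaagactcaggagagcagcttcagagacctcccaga

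H2-Eb1: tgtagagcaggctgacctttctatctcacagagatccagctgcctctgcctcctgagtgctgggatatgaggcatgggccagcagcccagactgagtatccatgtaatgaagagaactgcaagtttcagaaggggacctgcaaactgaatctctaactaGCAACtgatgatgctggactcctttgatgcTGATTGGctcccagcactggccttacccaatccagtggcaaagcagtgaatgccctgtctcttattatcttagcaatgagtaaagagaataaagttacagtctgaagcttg

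H2-DMb1: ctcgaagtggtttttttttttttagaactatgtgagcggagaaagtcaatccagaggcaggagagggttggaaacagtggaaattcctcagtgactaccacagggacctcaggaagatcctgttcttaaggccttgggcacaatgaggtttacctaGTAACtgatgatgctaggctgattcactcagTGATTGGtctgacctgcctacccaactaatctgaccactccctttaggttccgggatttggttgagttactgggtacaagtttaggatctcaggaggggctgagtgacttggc

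The 3 windows lie on chromosome 17, at chr17:34287774-34288073 on the minus strand for *H2-Aa*, chr17:34305617-34305916 on the plus strand for *H2-Eb1* and chr17:34152941-34153240 on the plus strand for *H2-DMb1*. The boxes are 26, 25 and 26 bases apart, and TGATTGG begins 50, 61 and 63 bases before the start. The first box reads GCAAC in *H2-Aa* and *H2-Eb1* and GTAAC in *H2-DMb1*. TGACGTCA was found in the *H2-Aa* window alone of these 3. The pair at this spacing occurred in 106 of 32851 windows (0.323%), belonging to 99 genes, whereas TGATTGG alone was in 7.82%, GNAAC in 84.8% and TGACGTCA in 1.79%. Among the 99 genes were 6 of the 8 class II genes that have a window, the other 3 being *H2-Oa*, *H2-Ob* and *H2-Eb2*. Because the letters were chosen after the windows had been read, this count is a description and no measure of enrichment. Neither of the 2 windows of *H2-DMa* held TGATTGG. They lie at chr17:34122582-34122881 and chr17:34125268-34125567, inside the annotated span of the gene. Other possible starts of *H2-DMa* were not searched. The matches above are descriptions of letters and not of bound factors.

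Dendritic cells carried the highest class II level of the callus. The 7 genes together made up 39665 CPM of the conventional dendritic-like cells (749 cells with *Cd209a*, *Flt3* and *Clec10a* among their list), 26519 CPM of the mature dendritic-like cells (114 cells led by *Ccr7* and *Ccl22*), 16420 CPM of the monocyte-like cells (837, led by *Ly6c2* and *Ccr2*) and 13392 CPM of the C1q macrophage-like cells (1598, led by *Ms4a7*, *C1qa* and *C1qb*). The Mrc1 Folr2 macrophage-like cells (2191, led by *Ccl8*, *Cbr2* and *Mrc1*) followed at 3594 CPM and the Arg1 macrophage-like cells (3248, led by *Arg1* and *Spp1*) at 3218 CPM. Cycling myeloid cells were at 2819 CPM and osteoclast-like cells at 1142 CPM. The cycling myeloid class was named by its cell cycle markers and may include granulocyte precursors. It is not counted among the macrophages and monocytes below. The other 16 classes lay between 25.4 and 708 CPM, from cycling endothelial-like cells to T and NK-like cells.

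By library, in the order control 4 dpf, RA 4 dpf, control 7 dpf and RA 7 dpf, which is kept throughout, the conventional dendritic-like cells stood at 42133, 38146, 37584 and 38087 CPM. The C1q macrophage-like cells stood at 10687, 7156, 17457 and 20219 CPM. The Mrc1 Folr2 macrophage-like cells stood at 2732, 1100.1, 4927 and 7062 CPM. The RA 4 dpf library was the lowest and the RA 7 dpf library the highest in both macrophage classes, while the control 7 dpf library was the lowest in the dendritic class. The ranges over libraries with at least 20 cells spanned 1.12-fold in the conventional dendritic-like cells, 2.83-fold in the C1q and 6.42-fold in the Mrc1 Folr2 macrophage-like cells. In the order of pooled levels, the ranges of neighbouring classes did not overlap between conventional and mature dendritic-like cells, between C1q and Mrc1 Folr2 macrophage-like cells, between cycling myeloid and osteoclast-like cells, between osteoclast-like and T and NK-like cells, and between the 2 lowest classes, arterial and cycling endothelial-like cells. All other neighbours overlapped, including Mrc1 Folr2 and Arg1 macrophage-like cells. In the plot of the summed level, the conventional dendritic-like class forms the top and mesenchymal and endothelial classes the bottom. The mature dendritic-like class overlaps the monocyte-like and C1q macrophage-like classes, and in RA 7 dpf it lay below both, at 11574 CPM against 18193 and 20219 CPM.

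**Figure D1:**
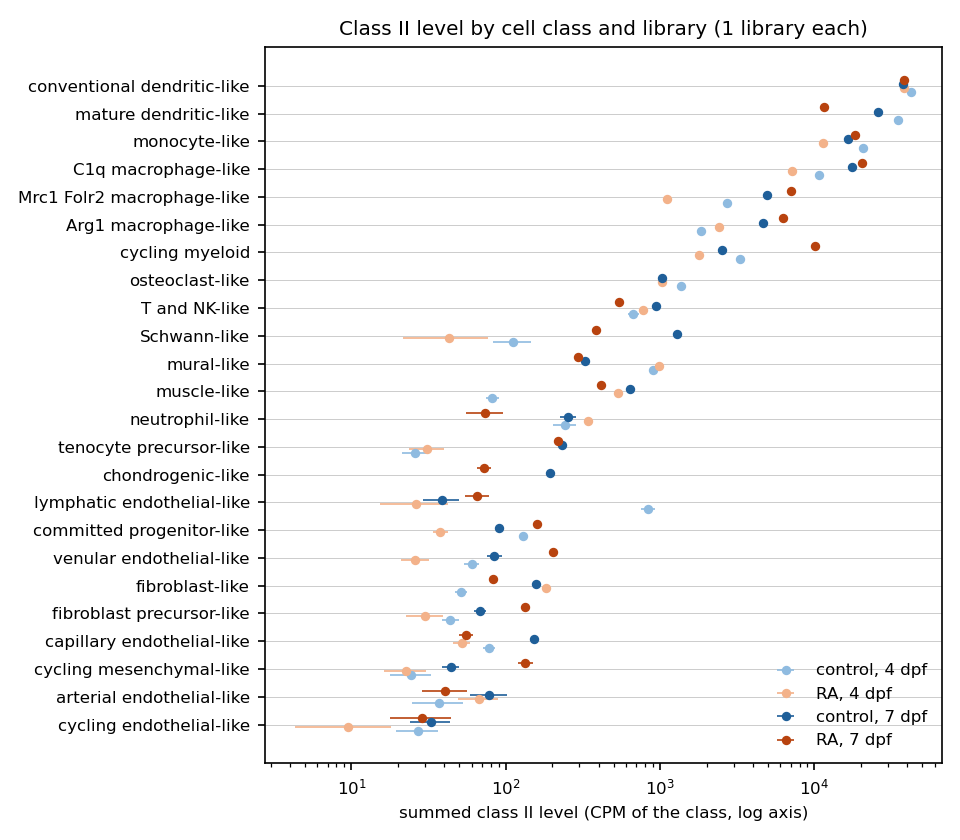
Summed level of the 7 MHC class II genes (CPM, log axis) in each cell class and library with at least 20 cells; points are libraries and bars are 95% Poisson intervals. The conventional dendritic-like class sat between 37584 and 42133 CPM in all 4 libraries, while the Mrc1 Folr2 macrophage-like class ran from 1100.1 to 7062 CPM.

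The I-A α chain gene *H2-Aa* stood in conventional dendritic-like cells at 7801, 7169.6, 7167 and 7485 CPM. In C1q macrophage-like cells the values were 2128, 1432, 3588 and 4183 CPM, and in Mrc1 Folr2 macrophage-like cells 549, 206, 1031 and 1554 CPM. The dendritic values hardly moved between libraries, whereas in both macrophage classes the RA 4 dpf library was the lowest and the RA 7 dpf library the highest, without overlap between the days. Its partner, the β chain gene *H2-Ab1*, followed the same order of libraries, at 1934, 1253, 3216 and 3699 CPM in C1q macrophage-like cells and 431, 163, 859 and 1229 CPM in Mrc1 Folr2 macrophage-like cells. In conventional dendritic-like cells *H2-Ab1* lay between 7850.1 and 9016 CPM. The I-E β chain gene *H2-Eb1*, left without its partner in this strain, was transcribed at a level close to that of the I-A chains, at 7759 to 8839 CPM in conventional dendritic-like cells and 112 UMIs per 100 of *H2-Aa*. In Mrc1 Folr2 macrophage-like cells the *H2-Eb1* proportion was lower, at 75.9 per 100 of *H2-Aa*.

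The invariant chain gene *Cd74* gave the most UMIs of the 7 genes in these classes. It stood at 14904, 13739, 13351 and 13262 CPM in conventional dendritic-like cells, at 4204, 2947, 6819.9 and 7693 CPM in C1q macrophage-like cells, and at 1174, 489.55, 2045 and 2825 CPM in Mrc1 Folr2 macrophage-like cells. Per 100 UMIs of *H2-Aa* there were 177 to 192 of *Cd74* in the libraries of conventional dendritic-like cells, 184 to 206 in C1q and 182 to 237 in Mrc1 Folr2 macrophage-like cells. Osteoclast-like cells, which resorb bone and cartilage, held 323 per 100 at a *Cd74* level of 552 CPM.

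The chaperone genes were an order of magnitude lower. *H2-DMa* stood at 772, 597, 668 and 716 CPM and *H2-DMb1* at 704, 523, 669 and 659.58 CPM in conventional dendritic-like cells. In C1q macrophage-like cells *H2-DMa* was at 225, 138, 286 and 354 CPM and *H2-DMb1* at 158, 90.1, 261 and 282 CPM, again with the RA 4 dpf library lowest. Mature dendritic-like cells held a lower proportion than the classes set beside them here: they held 3.95 *H2-DMa* (3.49 to 4.46) and 2.06 *H2-DMb1* UMIs (1.74 to 2.44) per 100 of *H2-Aa*, against 9.35 and 8.59 in the conventional dendritic-like cells, 11.1 and 10.1 in the monocyte-like cells and 8.93 and 7.03 in the C1q macrophage-like cells. A low *H2-DMb1* proportion was also seen in 26 cells that passed a gate of B cell markers, at 2.97, beside 7.06 for *H2-DMa*. The mature class rested on 272 *H2-DMa* and 142 *H2-DMb1* UMIs in 114 cells.

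The coactivator *Ciita* was the scarcest. It stood at 96.4, 98.9, 84.9 and 59.3 CPM in conventional dendritic-like cells, from 387, 262, 135 and 97 UMIs. In monocyte-like cells it was at 43.1, 30.0, 30.3 and 41.4 CPM, in C1q macrophage-like cells at 23.8, 13.0, 28.4 and 36.4 CPM, and in Mrc1 Folr2 macrophage-like cells at 7.60, 3.24, 10.3 and 16.2 CPM. Over the pooled libraries the order of these 4 classes by *Ciita* was that of the summed level. At 7 dpf the C1q macrophage-like cells had a higher summed level and a lower *Ciita* level than the monocyte-like cells. This *Ciita* order lay within counting error: the C1q intervals, 24.2 to 33.1 CPM in control and 30.5 to 43.1 CPM in RA, held the monocyte-like values. In neutrophil-like cells 1 *Ciita* UMI was counted in 261 cells. After every cell had been thinned to 4000 UMIs, 27.1% of conventional dendritic-like cells had a *Ciita* UMI (56.6% unthinned, median depth 12640 UMIs), 9.32% of C1q (20.8%, 12200) and 3.19% of Mrc1 Folr2 macrophage-like cells (9.54%, 13550), against 0% of neutrophil-like cells (0.383%, 23000).

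**Figure D2:**
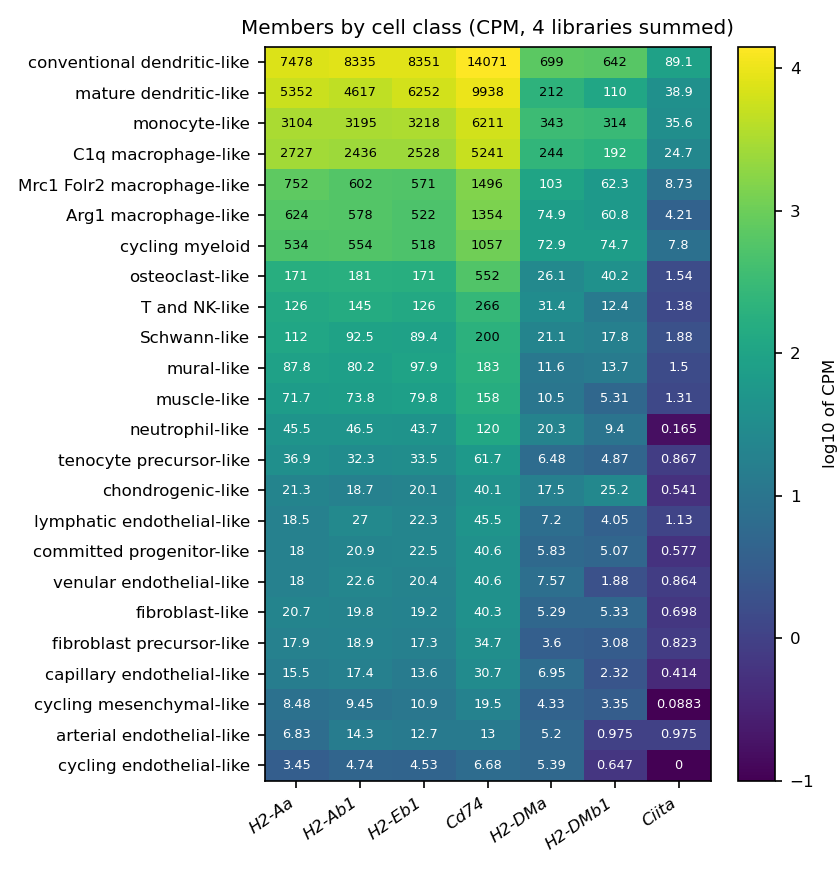
Level of each of the 7 MHC class II genes (columns) in each cell class (rows), all libraries pooled, as CPM on a log10 colour scale. *Cd74* is the strongest column and *Ciita* the weakest, at 14071 and 89.1 CPM in the conventional dendritic-like row.

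At the level of single cells, class II UMIs were spread more evenly in conventional dendritic-like cells than in the macrophage classes. With each cell thinned to 4000 UMIs, the median conventional dendritic-like cell held 177, 160, 157 and 150 class II UMIs in the 4 libraries. The median C1q macrophage-like cell held 14.5, 2, 55 and 83, and the share of these cells with at least 10 was 54.4%, 35.3%, 74.7% and 80.1%. The median Mrc1 Folr2 macrophage-like cell held 1, 0, 2 and 4, and 20.5%, 9.93%, 34.5% and 42.8% of the cells held at least 10. In that class the tenth of cells with the most class II carried 69.9%, 81.1%, 55.0% and 48.4% of all its class II UMIs, against 17.8% in the conventional dendritic-like cells. The low mean of this class was therefore the mean of many cells near 0 and a smaller part with high counts, and that part was larger at 7 dpf. The tenth with the most class II held 24.5% in mature dendritic-like and 33.9% in C1q macrophage-like cells over all libraries. In RA 7 dpf the mature class had the larger share of these, at 33.9% (20 cells) against 26.6%. The share of C1q macrophage-like cells with an *H2-Aa* UMI was 59.8%, 44.5%, 77.2% and 84.9% when thinned (72.2% over all cells unthinned), and that of Mrc1 Folr2 macrophage-like cells 27.9%, 16.1%, 42% and 50.2% (44.0% unthinned). In neutrophil-like and muscle-like cells, in which class II is low, the *H2-Aa* shares were 7.28% (14.6% unthinned, median depth 23000 UMIs) and 4.45% (9.64%, 13590), and shares near these were read as background.

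Other genes of the pathway came from 6 lists of related genes, chosen with earlier results known. The other class II chains, *H2-Oa* and *H2-Ob*, which inhibit the chaperone, and *H2-DMb2* and *H2-Eb2*, were detected mainly in dendritic cells. *H2-Oa* stood at 152, 120, 93.1 and 96.0 CPM in conventional dendritic-like cells and at 0.404 CPM or less in Mrc1 Folr2 macrophage-like cells. *H2-Eb2* stood at 226, 110, 240.0 and 113 CPM in mature and 12.8 to 22 CPM in conventional dendritic-like cells. The ubiquitin ligase *March1*, which sends class II molecules for degradation, was at 38.4 to 68.3 CPM in conventional dendritic-like cells and gave 0, 1, 1 and 0 UMIs in mature dendritic-like cells. In contrast the co-stimulatory ligand *Cd80* was at 249.6 to 396 CPM in mature and 113 to 152 CPM in conventional dendritic-like cells, and the inhibitory ligand *Cd274* at 524 to 834 against 136 to 178 CPM. Among proteases that cut the invariant chain and antigens, *Ctss* was higher in C1q macrophage-like cells (2736 to 3124 CPM) than in conventional dendritic-like cells (684 to 1337 CPM). *Ifng*, which encodes interferon-γ, was at 79.8, 64.0, 125 and 108 CPM in T and NK-like cells and had no UMI in conventional dendritic-like, monocyte-like, C1q or Arg1 macrophage-like cells. The promoter-binding factor *Rfx5* did not exceed 4.23 CPM in conventional dendritic-like cells.

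The study asked how the arthritis model alters the callus, and the RA and control libraries are compared here class by class. At 4 dpf the class II level was lower in RA than in control in 3 of the 4 macrophage and monocyte classes. At 7 dpf it was higher in RA in all 4. A gene was counted as past 2-fold when its ratio lay beyond 2 in either direction.

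In Mrc1 Folr2 macrophage-like cells at 4 dpf the summed level was 2732 CPM in control and 1100.1 CPM in RA, a ratio of 0.403 (0.393 to 0.413). All 7 genes were lower in RA, and 5 of 7 were past 2-fold, against 1.91% of all genes tested in this comparison. The ratios were 0.375 for *H2-Aa*, 0.378 for *H2-Ab1*, 0.341 for *H2-Eb1*, 0.417 for *Cd74* and 0.426 (0.258 to 0.679) for *Ciita*, and the chaperone genes moved less, at 0.664 for *H2-DMa* and 0.626 for *H2-DMb1*. This ratio rested on how the class was drawn: when the class II genes were allowed into the clustering it was 0.926, while the other alternatives gave 0.330 to 0.406. Between the control and RA libraries the neutrophil markers in these cells were at 63.6 and 162 CPM (7 genes, 1 and 2 of them at 0), the macrophage markers at 34250 and 29500 CPM (8 genes, none at 0) and the conventional dendritic markers at 245 and 247 CPM, with median depths of 15980 and 16450 UMIs. Their part in the result was not tested.

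At 7 dpf the same class stood at 4927 CPM in control and 7062 CPM in RA, a ratio of 1.43 (1.41 to 1.45). The genes ranged from 1.08 for *H2-DMa* to 1.58 for *Ciita*, and 0 of 7 were past 2-fold (2.91% of all genes). Alternatives gave 1.36 to 1.66. The conventional dendritic markers were at 121 CPM in control and 326 CPM in RA (8 genes, 1 and 0 at 0), and their part was not tested.

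In C1q macrophage-like cells, which hold the highest class II level of the macrophages, the ratio was 0.670 (0.661 to 0.678) at 4 dpf and 1.16 (1.15 to 1.17) at 7 dpf. All 7 genes were lower in RA at 4 dpf, from 0.548 (0.404 to 0.736) for *Ciita* to 0.701 for *Cd74*, and all 7 were higher at 7 dpf, from 1.08 for *H2-DMb1* to 1.28 for *Ciita*. None of the 7 was past 2-fold on either day (2% and 1.68% of all genes). With class II genes in the clustering the ratio at 4 dpf was 0.789, and without integration or with coarser clusters no cluster fell into this class. At 4 dpf the macrophage markers were also lower in RA, at 20630 against 30180 CPM, and the neutrophil markers were at 155 against 60.9 CPM. Their part was not tested.

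In monocyte-like cells the summed level at 4 dpf was 20508 CPM in control and 11396 CPM in RA, a ratio of 0.556 (0.548 to 0.563), and all 7 genes were lower, from 0.529 for *H2-Ab1* to 0.697 for *Ciita*. At 7 dpf the ratio was 1.11 (1.1 to 1.13), with *H2-DMa* at 1.49. Again 0 of 7 genes were past 2-fold on either day (3.33% and 2.26% of all genes). Drawing the classes differently moved these ratios, to 0.884 at 4 dpf with coarser clusters and to 1.75 and 1.63 at 7 dpf without library integration and with class II genes in the clustering. The neutrophil markers in these monocyte-like cells were at 1239 CPM in control and 6774 CPM in RA at 4 dpf, with none of the 7 at 0, and their part was not tested.

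Arg1 macrophage-like cells differed from the other 3 classes at 4 dpf in the direction of the summed level. The class joined a cluster led by *Mmp12* and *Cxcl3* (622, 329, 435 and 278 cells) and a cluster led by *Arg1* and *Hmox1* (581, 343, 485 and 175 cells), and which of them was larger changed between libraries. The summed level was 1842 CPM in control and 2404 CPM in RA, a ratio of 1.31 (1.28 to 1.33), with *Cd74* and *H2-Aa* at 1.37 and *H2-DMa* at 0.712 (0.635 to 0.797). With coarser clusters this ratio was 0.836, on the other side of 1, and without integration it was 1.01. At 7 dpf it was 1.34 (1.33 to 1.36), and *Ciita* at 2.14 (1.46 to 3.15, from 56 and 58 UMIs) was the 1 gene of 7 past 2-fold (2.1% of all genes), whereas 0 of 7 were past it at 4 dpf (2.31%). The higher sum in RA at 4 dpf was not seen in the median cell. With cells thinned as above, the median cell of this class held 1 class II UMI in control and 0 in RA. Cells with 0 were 48.05% in control and 52.23% in RA. The tenth of cells with the most class II held 81.8% and 82.7% of the class II UMIs. The conventional dendritic markers in this class were at 79.8 and 166 CPM at 7 dpf, and their part was not tested.

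Over all macrophage and monocyte cells together (7874 cells) the ratio was 0.831 (0.824 to 0.837) at 4 dpf and 1.24 (1.23 to 1.25) at 7 dpf, with 0 of 7 genes past 2-fold (2.61% and 2.44% of all genes). The genes lay between 0.761 and 0.862 at 4 dpf and between 1.17 and 1.52 at 7 dpf. With the 4 classes weighted equally, an alternative chosen after the values were seen, the ratios were 0.617 and 1.19.

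Over all 863 dendritic cells the ratio was 0.888 (0.882 to 0.895) at 4 dpf and 0.974 (0.964 to 0.985) at 7 dpf, with 0 of 7 genes past 2-fold (1.94% and 4.2% of all genes). In the conventional dendritic-like class the chaperone genes were the lowest at 4 dpf, at 0.743 (0.696 to 0.793) for *H2-DMb1* and 0.773 for *H2-DMa*. At 7 dpf *Ciita* was at 0.698 (0.532 to 0.913), while the other 6 genes lay between 0.986 and 1.07. The mature dendritic-like class gave 34569, 20956, 25936 and 11574 CPM, ratios of 0.606 (0.588 to 0.625) and 0.446 (0.425 to 0.468), from 49, 19, 26 and 20 cells. Its genes that reached 50 UMIs in the compared pair of libraries had ratios that ran from 0.558 for *H2-Ab1* to 0.721 for *H2-DMa* at 4 dpf and from 0.322 for *H2-Ab1* to 0.569 for *H2-Aa* at 7 dpf, each with an interval below 1. The mature class was thus lower in RA on both days, by more than the sum over all dendritic cells. Its 19 cells in RA 4 dpf are under the minimum of 20 cells used for the ranges over libraries. This class was not run through the alternative settings. These few cells set the precision, and the counting intervals do not cover the sampling of cells.

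**Figure D3:**
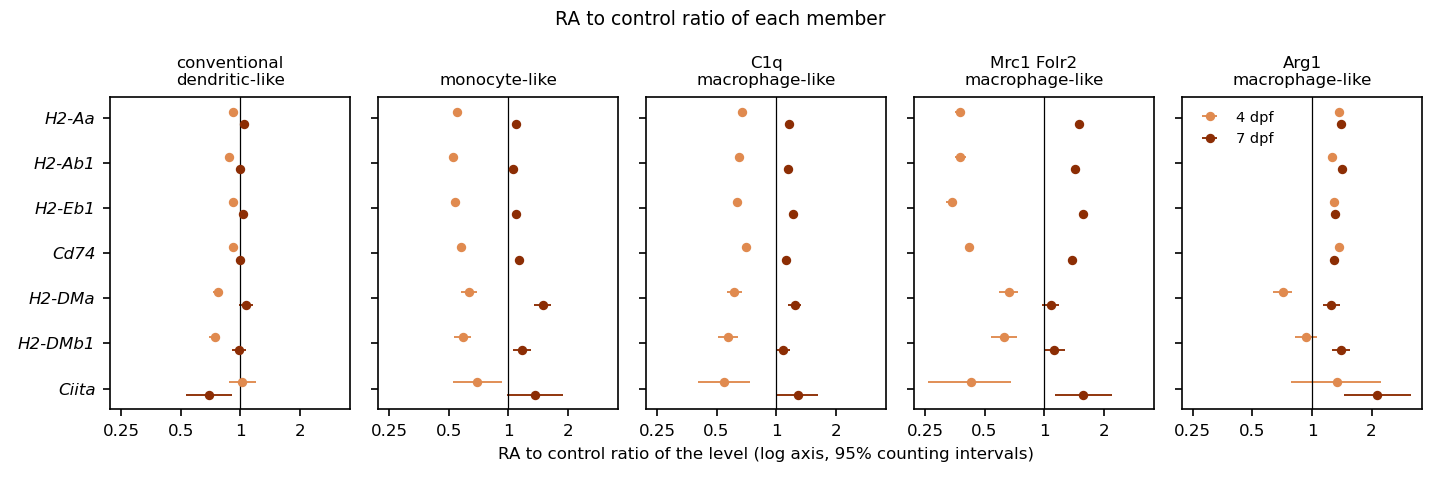
Ratio of RA to control (log axis) for each MHC class II gene in 5 cell classes at 4 and 7 dpf, with 95% counting intervals. In the Mrc1 Folr2 macrophage-like class all 7 genes lay below 1 at 4 dpf (0.341 to 0.664) and above 1 at 7 dpf (1.08 to 1.58).

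The lists of pathway genes were compared in the same way. In Mrc1 Folr2 macrophage-like cells at 4 dpf the median log2 ratio was -0.10 over the 7 tested promoter-binding factors, -0.01 over the 6 genes of antigen and invariant chain proteolysis, -0.06 over the 2 ubiquitin ligases, 0.12 over the 5 tested co-stimulation genes and 0.11 over the 7 tested genes of the interferon-gamma pathway, beside 0.00 over all genes. Of these, 1 gene, *Icosl*, was past 2-fold and lower in RA, where 1.91% of all genes were past it. The other class II chains had too few UMIs to be compared in that class. In all macrophages and monocytes at 4 dpf none of the list genes was past 2-fold, where 2.61% of all genes were past it. The other class II chains there had a median of -0.56 (4 genes) beside 0.02 over all genes, and at 7 dpf a median of 0.07 (3 genes). In monocyte-like cells at 4 dpf the other class II chains had a median of -0.94 (2 genes), beside -0.03 over all genes. Of these 2, *H2-DMb2* was past 2-fold and lower in RA, where 3.33% of all genes were past it. In monocyte-like cells at 7 dpf the promoter-binding factors had a median of -0.40 (5 genes) and the ubiquitin ligases of -0.39 (2 genes), beside -0.02 over all genes. In Arg1 macrophage-like cells at 7 dpf the co-stimulation genes had a median of 0.45 (5 genes) beside 0.00. In dendritic cells at 7 dpf the proteolysis list had a median of -0.74 (6 genes) beside -0.10 over all genes. Of these 6, *Ctsd* was past 2-fold and lower in RA, where 4.2% of all genes were past it. In mesenchymal cells at 7 dpf *Icosl* and *Ifng* were past 2-fold and higher in RA, where 6.73% of all genes were past it. *Ifng* was also counted in T and NK-like cells, which were 2.12% of control 7 dpf and 3.55% of RA 7 dpf cells. Doublet calls in these libraries were 2.70% and 3.6%. The part of RNA from such cells in the mesenchymal *Ifng* value was not tested.

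Between the days, class II levels in macrophages were higher at 7 dpf. In control libraries the sum over all macrophages and monocytes went from 4924 CPM at 4 dpf to 8836 CPM at 7 dpf, a ratio of 1.79 (1.78 to 1.81), and in RA from 4090.4 to 10950 CPM, a ratio of 2.68 (2.66 to 2.70). In RA all 7 genes were past 2-fold, from 2.37 for *H2-DMa* to 2.87 for *H2-Aa*, against 5.8% of all genes. In control 0 of 7 were, from 1.38 for *Ciita* to 1.86 for *H2-Aa* (2.92% of all genes). With the 4 classes weighted equally, chosen after the values were seen, the ratios of the sum were 1.21 in control and 2.34 in RA. In RA the span was widest in Mrc1 Folr2 macrophage-like cells, at 6.42 (6.27 to 6.58) against 1.80 in control, and *H2-Eb1* reached 8.20 and *H2-DMa* 2.43 in RA. In control the Arg1 macrophage-like cells had a wider span, from 1842 to 4624 CPM, a ratio of 2.51, and in RA their ratio was 2.58. The ratios of 7 to 4 dpf in single classes were not run through the alternative settings. With class II genes in the clustering, the RA to control ratio of Mrc1 Folr2 macrophage-like cells at 4 dpf was 0.926 instead of 0.403. The span of 6.42 may therefore depend on how this class was drawn. Monocyte-like cells went from 20508 to 16372 CPM in control and from 11396 to 18193 CPM in RA, ratios of 0.798 and 1.60. The macrophage markers were higher at 7 dpf too, at 34250 and 46290 CPM in the control Mrc1 Folr2 macrophage-like cells, whose median depth was 15980 UMIs at 4 dpf and 10940 UMIs at 7 dpf, and the part of either was not tested. In dendritic cells the ratios of 7 to 4 dpf were 0.876 in control and 0.961 in RA, with 0 of 7 genes past 2-fold (2.16% and 5.51% of all genes), although *Ciita* in RA was at 0.576 (0.453 to 0.728).

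The cells that supplied class II RNA also shifted between the days. Dendritic cells were 6.45%, 4.72%, 2.32% and 1.68% of the cells and gave 45.0%, 45.7%, 19.8% and 22.6% of all class II UMIs of their library. Macrophages and monocytes gave 45.3%, 42.5%, 68.6% and 63.1%. The class II level of the whole library was 3880, 2796, 2353 and 1828 CPM. These shares are those of the cells recovered from the digest.

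Endothelial and mesenchymal cells carried little class II. The mesenchymal cells (8855) stood at 66.5, 89.3, 129 and 127 CPM, and the blood endothelial cells (2952) at 63.7, 39.1, 114 and 121 CPM, beside 286 CPM in neutrophil-like cells. The ratios of RA to control were 1.34 at 4 dpf and 0.989 at 7 dpf in mesenchymal cells, with 0 of 6 and 0 of 7 tested genes past 2-fold (3.78% and 6.73% of all genes), and 0.613 and 1.07 in blood endothelial cells, with 0 of 5 and 0 of 6 (1.51% and 3.44%). These directions were not stable to the processing: the mesenchymal ratio at 4 dpf kept its side of 1 in 7 of 11 alternatives (0.384 to 2.20 in all) and the blood endothelial ratio at 4 dpf in 9 of 11 (up to 1.71), and at 7 dpf in 7 of 11. Most of this level came from a few cells. In the 14 non-immune classes (14192 cells, fibroblast-like to Schwann-like), 190 cells (1.34%) with at least 20 class II UMIs held 76.4% of the class II UMIs, and 184 of these 190 also had UMIs of *Ptprc*, *Tyrobp*, *Fcer1g*, *Laptm5* or *Coro1a*, genes of blood-derived cells. The median count of those 5 genes was 41.5 in the 190 cells and 0 in the others, and 88 of the 190 were called doublets. Without the 190 cells the level of the 14 classes was 34.9 CPM in place of 146 CPM. The limit of 20 was set after the values were seen, and 24 cells lay at 20 to 29 and 22 cells at 15 to 19.

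In the mesenchymal cells 107 cells were above that limit, of which 58 were called doublets and 2 had no immune UMI. Their own mesenchymal markers stood at 24950 CPM, against 30270 CPM in the other mesenchymal cells, and the macrophage markers at 4819 against 405 CPM. In the blood endothelial cells 28 cells were above the limit, 7 of them called doublets. By a limit chosen after the values were seen, 10 of these 28 had 5 or fewer immune UMIs, with 0 doublet calls. Macrophage markers in these 10 cells were at 308 CPM, against 441 CPM in the blood endothelial cells under 20 class II UMIs. Higher in the 10 cells were the 5 immune genes, at 141 against 61.6 CPM, and the dendritic markers, at 60.2 against 35.6 CPM. The part of immune RNA in these cells was not tested. Of the 28, 3 cells had 21 to 43 class II UMIs and no immune UMI, all in the venular endothelial-like class, with 1 in control 7 dpf and 2 in RA 7 dpf. In the plot of single cells, high class II counts go with high counts of immune genes in most mesenchymal, mural-like, muscle-like and Schwann-like cells. With 5 or fewer immune UMIs there were 12 of the 107 such mesenchymal cells, 2 of them called doublets, and 10 of the 28 such blood endothelial cells. The same held for 1 of 21 such mural-like and 1 of 23 such muscle-like cells.

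**Figure D4:**
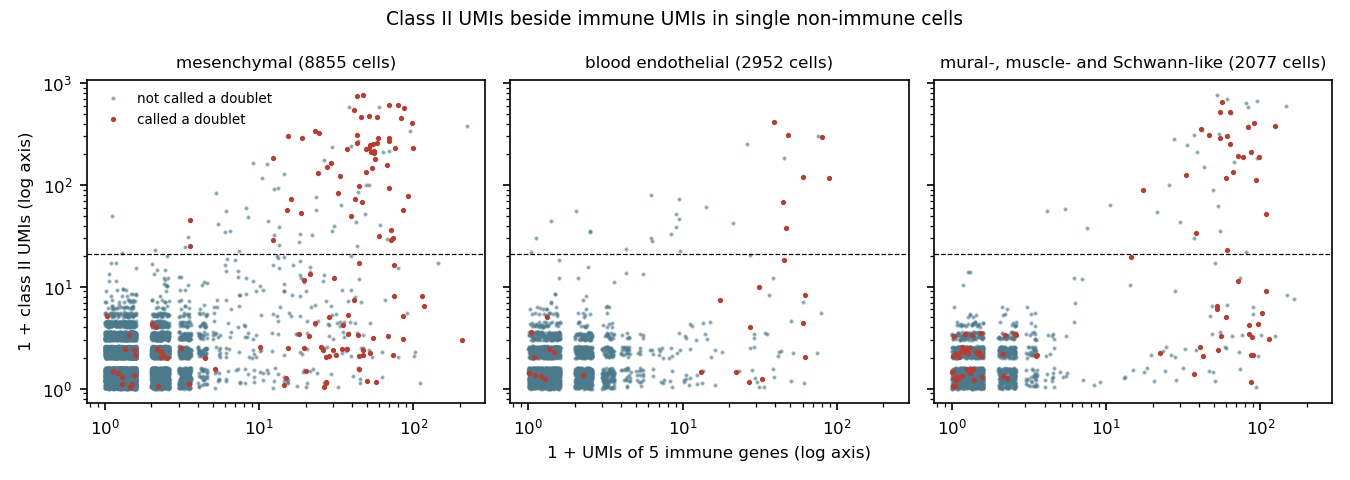
Class II UMIs against UMIs of 5 immune genes in single cells (both as 1 + count with jitter, log axes) of the mesenchymal, the blood endothelial and the mural-like, muscle-like and Schwann-like classes; red points are called doublets and the dashed line marks 20 class II UMIs. Above the line lie 107 mesenchymal and 28 blood endothelial cells, of which 2 and 3 had no immune UMI.

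In cells with no UMI of the 5 immune genes, a low level remained. It was 32 CPM over 9484 cells of the 14 classes, from 25.2 CPM in tenocyte precursor-like to 55.5 CPM in chondrogenic-like cells, and 33.4, 23.5, 33.7 and 32.5 CPM by library. In mesenchymal cells without immune UMIs (5836) it was 32.9, 22.3, 31.5 and 30.6 CPM, and in blood endothelial cells 33.0, 22, 42 and 40.8 CPM, so that the RA 4 dpf library was the lowest in both. Free RNA from immune cells was not measured apart, and its part in this level was not tested. Per 100 *H2-Aa* UMIs there were 114 *H2-DMa* UMIs (102 to 128) in mesenchymal, 113 (91.9 to 139.6) in blood endothelial and 75.5 (47.9 to 118) in muscle-like cells, against 10.8 (10.6 to 11) in macrophages and monocytes. For the invariant chain gene *Cd74* they were 144 (129 to 160) in mesenchymal and 159 (131 to 194) in blood endothelial cells, against 200 (199 to 201). *Cd74* was highest in the lymphatic endothelial-like cells, at 15.6 CPM, and in the venular endothelial-like cells, at 7.63, 4.13, 18.4 and 12.7 CPM by library.

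*H2-DMb1* differed most between the non-immune classes. In cells without immune UMIs it stood at 23.9 CPM (20.7 to 27.5, 195 UMIs, 306 cells) in chondrogenic-like cells, which make the cartilage of the callus, at 4.20 CPM in fibroblast-like, 5.85 CPM in mural-like and 6.43 CPM in Schwann-like cells (18 UMIs), at 1.39 CPM (1.01 to 1.86) in blood endothelial cells and at 0.200 CPM (0.0243 to 0.724, 2 UMIs in 658 cells) in muscle-like cells. In chondrogenic-like cells the level was 24.3 CPM (19.9 to 29.4) in control 7 dpf and 25.5 CPM (20.4 to 31.5) in RA 7 dpf, and the 4 dpf libraries held only 6 and 5 such cells with 1 UMI each. An *H2-DMb1* UMI was seen in 27.5% of these chondrogenic-like cells, whose median depth was 26570 UMIs. *H2-DMa* was at 13.1 CPM (10.8 to 15.8) there, while *H2-Aa* was at 2.45 CPM (1.5 to 3.79), *Cd74* at 5.52 CPM and *Ciita* at 0.490 CPM. The proportion of *H2-DMb1* to 100 *H2-Aa* UMIs was 975 (614 to 1632) in chondrogenic-like cells. Over all mesenchymal cells, which include the chondrogenic-like cells, it was 117 (105 to 131). In the other mesenchymal classes it ran from 63.8 (41.1 to 98.0) in tenocyte precursor-like to 105.5 (84.7 to 131) in committed progenitor-like cells. It was 25.3 (17.7 to 35.4) in blood endothelial and 4.08 (0.481 to 15.6) in muscle-like cells, beside 8.48 (8.32 to 8.64) in macrophages and monocytes.

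**Figure D5:**
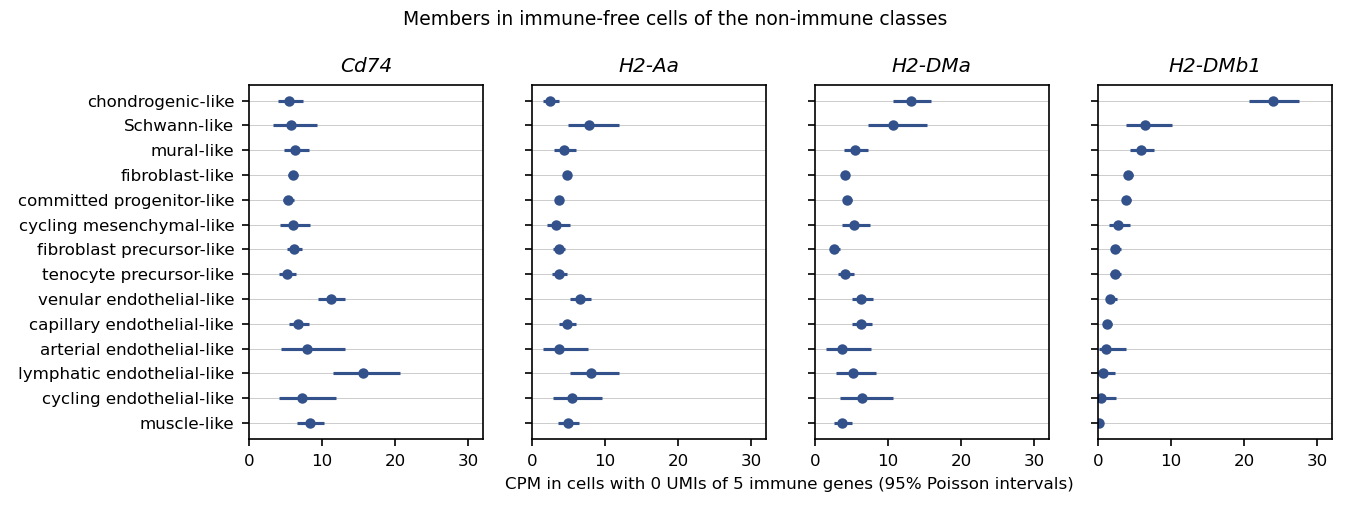
Level of *Cd74*, *H2-Aa*, *H2-DMa* and *H2-DMb1* (CPM) in cells with no UMI of 5 immune genes, in 14 non-immune classes, all libraries pooled, with 95% Poisson intervals. *H2-DMb1* stood at 23.9 CPM in chondrogenic-like cells and at 0.200 CPM in muscle-like cells.

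In the annotation of this build (GENCODE M21 on GRCm38) *H2-DMb1* lies at chr17:34153072-34160230 on the plus strand and overlaps no other gene, but a close copy, *H2-DMb2*, lies beside it at chr17:34143307-34151555, and how the counting divided reads between them is uncertain. *H2-DMa* (chr17:34119541-34139101, plus strand) overlaps *CR974462.3* on the same strand and *Brd2*, *CR974462.4* and *Gm20493* on the other strand. *H2-Aa* (chr17:34282744-34287823, minus strand) and *H2-Ab1* (chr17:34257689-34269419, plus strand) lie nearby, as does *H2-Eb1* (chr17:34305867-34316674, plus strand), which overlaps *Gm20513* on the other strand. *Cd74* overlaps *Mir5107* on the same strand. *Ciita* lies on chromosome 16 (chr16:10480059-10528418, plus strand) and overlaps *Dexi* on the other strand.

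Apart from class II genes, the genes whose pattern was most like the mean log2 level of the 7 genes were *Cd86* (Pearson r 0.919), *Cd83* (0.917), *Etv3* (0.913), *Bcl2a1d* (0.911), *Irf5* (0.911), *Grb2* (0.899), *Tnip3* (0.897), *Gm46224* (0.889), *Slamf7* (0.887) and *Grk3* (0.886), over 102 sums of a class in a library and 8759 genes. Of the 10 genes, *Cd86* is also in the co-stimulation list. Among them *Cd86* and *Cd83* encode surface proteins of antigen-presenting cells and *Irf5* a transcription factor of myeloid cells. The sums of 1 library share its depth and free RNA, and the r values are descriptions.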

How the data were processed

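The authors aligned reads to mm10 and counted molecules with Cell Ranger 7.0.1, and the deposited values are raw UMI counts per gene and barcode of the called cells. From these counts, cells with 4000 to 50000 UMIs, 2000 to 7000 genes and at most 8% mitochondrial UMIs were kept. Seurat 5.3.0 in R 4.3.3 was used for 2000 variable genes (9 class II genes left out), anchor integration (30 dimensions), 15 components and clusters at resolution 1, and clusters were named where a marker list scored at least 0.65. The rule named the 7 class II genes, the listed pathway genes (other class II chains, promoter-binding factors, antigen and invariant chain proteolysis, ubiquitin ligases, co-stimulation, interferon-gamma pathway) and the 10 genes most like the 7, by Pearson r over log2(CPM + 1). Counts were summed per class and library in Python 3.11.15 (numpy 2.4.6, pandas 2.3.3, scipy 1.17.1, scanpy 1.11.5), and doublets were marked but kept. Intervals are 95% and exact. The share of genes past 2-fold was taken over genes with at least 50 UMIs in the 2 libraries together. The members and lists were chosen with earlier results of these data known. With 1 library for each treatment and day, libraries were compared without a test, and no fit over both days was made. Alternatives are listed in the closing section. The 2-fold calls, the ratio intervals, the ranking of the genes most alike and the TMM scaling were tested on simulated counts. Filtering, clustering, class naming and doublet calling were not tested in this way.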

Additional observations from a re-analysis of the deposited data

Results flagged for a closer look

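In 5 groups of cells the RA library had a lower summed class II level than control at 4 dpf and a higher one at 7 dpf. The ratios of RA to control at 4 and 7 dpf were 0.670 and 1.16 in C1q macrophage-like cells, 0.403 and 1.43 in Mrc1 Folr2 macrophage-like cells, 0.556 and 1.11 in monocyte-like cells, 0.905 and 1.01 in conventional dendritic-like cells, and 0.831 and 1.24 over all macrophages and monocytes. The last group contains the first 3, so these are not separate observations. The search also covered Arg1 macrophage-like cells, which were higher in RA on both days, and all dendritic, blood endothelial and mesenchymal cells. A group was listed when its 2 counting intervals lay on opposite sides of 1. At 4 dpf the alternatives reached 0.926 in Mrc1 Folr2 macrophage-like and 0.884 in monocyte-like cells. The conventional dendritic-like ratio at 7 dpf kept its side of 1 in 4 of 7 alternatives, and over all dendritic cells the ratio was 0.974. With 1 library for each treatment and day the difference between the days was not tested.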

How the results depend on the processing

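No paired analysis was possible because each ratio sets 1 library against 1 library and comes from no test. Of the 82 alternative values of the ratio of RA to control, 28 lay within the counting interval. The side of 1 was kept at 4 and 7 dpf in 10 of 10 and 10 of 10 alternatives for macrophages and monocytes, 9 of 9 and 7 of 9 for dendritic, 9 of 11 and 7 of 11 for blood endothelial and 7 of 11 and 10 of 11 for mesenchymal cells. Of 38 alternative ratios of 7 to 4 dpf 25 moved past the interval, and all 38 kept their side of 1. These 38 cover dendritic cells and macrophages and monocytes as groups, and no single class. The cause of the moves was not tested. Each value below is a ratio over a group, given in the order 4 then 7 dpf for RA to control and control then RA for 7 to 4 dpf.

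For macrophages and monocytes, RA to control was 0.617 and 1.19 with the 4 classes weighted equally (chosen after the data were seen), 0.822 and 1.20 with TMM scaling, 0.844 and 1.25 with class II genes among the variable genes, 0.699 and 1.27 with a marker gate in place of clusters, 0.757 and 1.17 with thinned cells, 0.861 and 1.23 without integration, 0.810 and 1.26 without *Cd74*, and 1.25 at 7 dpf with resolution 0.5. Their ratio of 7 to 4 dpf was 1.21 and 2.34 with equal weights, 1.97 and 2.81 without integration, 1.88 and 2.86 with resolution 0.5, 1.81 and 2.80 without *Cd74* and 1.81 in control without doublets, and in RA 2.58 with TMM, 2.65 with class II genes as variable genes, 3.26 with the gate and 2.78 with thinning.

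For dendritic cells, RA to control was 0.871 and 1.06 with TMM, 0.804 and 1.04 with the gate, 0.875 and 0.956 with thinning, 0.878 and 0.986 with resolution 0.5, 0.880 at 4 dpf without integration, 0.951 at 7 dpf with a looser filter and 0.987 at 7 dpf without *Cd74*. Their ratio of 7 to 4 dpf was 0.830 and 0.996 with TMM, 0.864 and 0.95 with class II genes as variable genes, 0.542 and 0.705 with the gate and 0.866 and 0.946 with thinning, in control 0.885 with the looser filter and 0.856 with resolution 0.5, and in RA 0.973 without integration and 0.977 without *Cd74*. Of the 863 dendritic cells of the clusters, 66.2% passed the gate.

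For mesenchymal cells, RA to control was 2.20 and 0.872 with class II genes as variable genes, 1.98 and 0.734 without doublets, 0.384 and 0.741 with the gate, 1.14 and 0.755 without integration, 1.07 and 0.914 with resolution 0.5, 0.717 and 0.832 without cells of 20 or more class II UMIs (chosen after the data were seen), 0.637 at 4 dpf with the looser filter, 0.678 at 4 dpf in cells with no immune UMI, and at 7 dpf 1.02 with TMM and 0.865 with thinning. For blood endothelial cells it was 1.22 and 1.41 with the gate, 0.836 and 0.938 with thinning, 0.948 and 1.15 without integration, 1.71 at 4 dpf with the looser filter, and at 7 dpf 1.17 with class II genes as variable genes, 0.882 without doublets, 0.971 with no immune UMI, 0.920 without cells of 20 or more class II UMIs and 1.54 with resolution 0.5. The direction in both groups thus depended on the setting. By class, with alternatives chosen after the data were seen, the conventional dendritic-like ratio at 7 dpf crossed 1 at 0.971 without integration, 0.986 with resolution 0.5 and 0.978 with class II genes as variable genes, and the Arg1 macrophage-like ratio at 4 dpf at 0.836 with resolution 0.5.

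With a minimum of 10 in place of 50 UMIs, genes past 2-fold in RA to control at 4 and 7 dpf went from 160 to 958 and 270 to 1225 in dendritic cells, 328 to 1227 and 295 to 1224 in macrophages and monocytes, 184 to 1031 and 442 to 1348 in blood endothelial, 536 to 1640 and 1160 to 2190 in mesenchymal, 198 to 957 and 281 to 1206 in Mrc1 Folr2, 187 to 939 and 152 to 806 in C1q, 250 to 1131 and 213 to 990 in Arg1 macrophage-like and 257 to 1008 and 165 to 961 in monocyte-like cells. In 7 to 4 dpf they went from 171 to 1042 and 390 to 1417 in dendritic cells and 373 to 1304 and 692 to 1921 in macrophages and monocytes. Of the 10 genes most like the 7, 6 were kept with a pseudocount of 10 and 5 with sums of at least 50 cells. In neutrophil-like cells *Ciita* rested on 1 UMI, so lower levels were not detectable at this depth.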

Other observations

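In an unnamed small cluster led by basophil genes, 26 cells passed a gate of B cell markers, a cell type known for constant class II expression. Their summed class II level was 12503, 12144, 7114 and 4573 CPM in control 4 dpf, RA 4 dpf, control 7 dpf and RA 7 dpf, from 12, 7, 4 and 3 cells. Cycling myeloid cells stood at 3271, 1794, 2529 and 10025 CPM, with 31 cells behind the highest value. T and NK-like cells, which lack class II in the mouse at rest, stood at 672, 775, 946 and 544 CPM, and 5.12% of them had an *H2-Aa* UMI after thinning. The tenth of these cells with the most class II held 92.5% of their class II UMIs. Lymphatic endothelial-like cells stood at 836, 26.3, 38.4 and 65.2 CPM, the first from 31 cells. Of these 31, the 4 cells with the most class II held 96.4% of the class II UMIs, so that value is not the level of a typical cell.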
